A study of Mus musculus with 12 samples.

Results

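The response of Mirc11-/- natural killer (NK) cell preparations to Listeria was described from 6 of the 12 RNA-seq libraries of the series: the 3 challenged knockout libraries (replicates 1, 2 and 3) and the 3 unchallenged knockout libraries (replicates 2, 3 and 4), chosen by their labels alone. Of 50643 genes listed, 16694 had enough counts to be tested. All libraries came from spleens of C57BL/6 mice, with NK cells enriched by negative isolation, which removes other cells instead of capturing NK cells. The challenged knockout libraries are from Mirc11-/- mice or cells challenged with Listeria, and the unchallenged knockout libraries are Mirc11-/- without it; 3 challenged and 3 unchallenged wild-type libraries were used for comparison. Every knockout library, controls included, thus lacks the Mirc11 cluster per its label. The sources used here do not give the dose, the route or the time of challenge, the age and sex of the mice or the design of the knockout allele. The labels do not say that each library came from a separate animal, so p-values may measure technical spread only. The series title names ubiquitin modifiers and the activation of NF-kB and AP-1 through TRAF6 as targets of Mirc11 in NK cells.

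NK cells are innate lymphocytes that kill infected or transformed cells with perforin and granzymes and secrete interferon-gamma, a cytokine that arms macrophages against bacteria growing inside cells. Listeria is such a bacterium, and in the spleen the infection brings in neutrophils and monocytes and induces interferons of type I and interferon-gamma. MicroRNAs are short RNAs that lower the levels of mRNAs with sites complementary to their seed.

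The microRNAs miR-23a, miR-27a and miR-24-2 form the Mirc11 cluster on the plus strand of chromosome 8 (GRCm38.p6). Their mature 3p forms are shown as RefSeq gives them, with the seed, bases 2 to 8, in capitals. Which mature forms the knockout removes was not tested. They lie at chr8:84208563-84208583, chr8:84208727-84208747 and chr8:84208875-84208896, and all 3 seeds differ.
miR-23a-3p: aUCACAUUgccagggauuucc
miR-27a-3p: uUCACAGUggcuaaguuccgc
miR-24-3p: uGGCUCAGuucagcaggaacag
The 3 microRNA genes had 0 counts in all libraries, wild-type included, so they check nothing about the genotype labels.

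Totals ran from 17624530 to 23665679 counts per library. The defining NK genes were abundant in every knockout library: Ncr1, an activating receptor, stood at 562 to 707 CPM (counts scaled to library size) after challenge and 818 to 843 CPM without it, and Eomes, a transcription factor of NK cells, at 267 to 313 CPM and 382 to 401 CPM in the same order. On the first principal component (61.3% of the variance) the challenged knockout libraries lay at 12.3, 10.7 and 2.41, between the unchallenged knockout libraries (-51.1 to -50.4) and the challenged wild-type libraries (91.2 to 93.6). Xist, the RNA of the inactive X chromosome, measured 523, 671 and 1020 CPM in challenged knockout libraries, against 1.06, 0.359 and 0.736 CPM in unchallenged ones. The sum of 4 Y-linked transcripts was 145, 212 and 121 CPM after challenge, against 356, 319 and 281 CPM without it, so each challenged knockout library carried both kinds of transcript. Among the wild-type libraries, unchallenged replicate 4 also held both, with 115 CPM of Y-linked transcripts, against 2.89 and 3.2 CPM in the others of its group, and 1180 CPM of Xist. Challenge and the sex of the cells therefore cannot be told apart within the knockout. Of 486 X-linked genes tested, 21.6% passed the test of the challenge, against 27.2% of autosomal genes. How these genes vary with sex was not tested, so the shares do not separate challenge from sex. Challenged knockout replicate 3 stood apart: it held the most Xist, the least Gm37352 (29.4 CPM, against 46.9 and 34.3 CPM), a transcript beside the cluster that was at 57.5 to 60.9 CPM in unchallenged knockout and at 2.99 to 7.1 CPM in wild-type libraries, and the fewest pancreatic acinar transcripts. Gm37352 was lower in every challenged knockout library without passing the test (edgeR adjusted p = 0.0615). Gm26532, also on chromosome 8, measured 0.882, 0.951 and 2.68 CPM in challenged and 0.112 to 0.494 CPM in unchallenged knockout libraries. It rose (log2 2.48, edgeR adjusted p = 0.0128), a call lost under 3 alternatives, and measured 2.29 to 4.8 CPM in wild-type. Both lay nearer wild-type levels after challenge, and the reason was not tested. Group names below refer to the labels. Counts of calls over all genes are given with and without challenged knockout replicate 3. In each of the 37 gene lists, leaving it out moved the number of rises and the number of falls by at most 3; where that was more than 1.5 times, the count without it is given too.

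**Figure D1:**
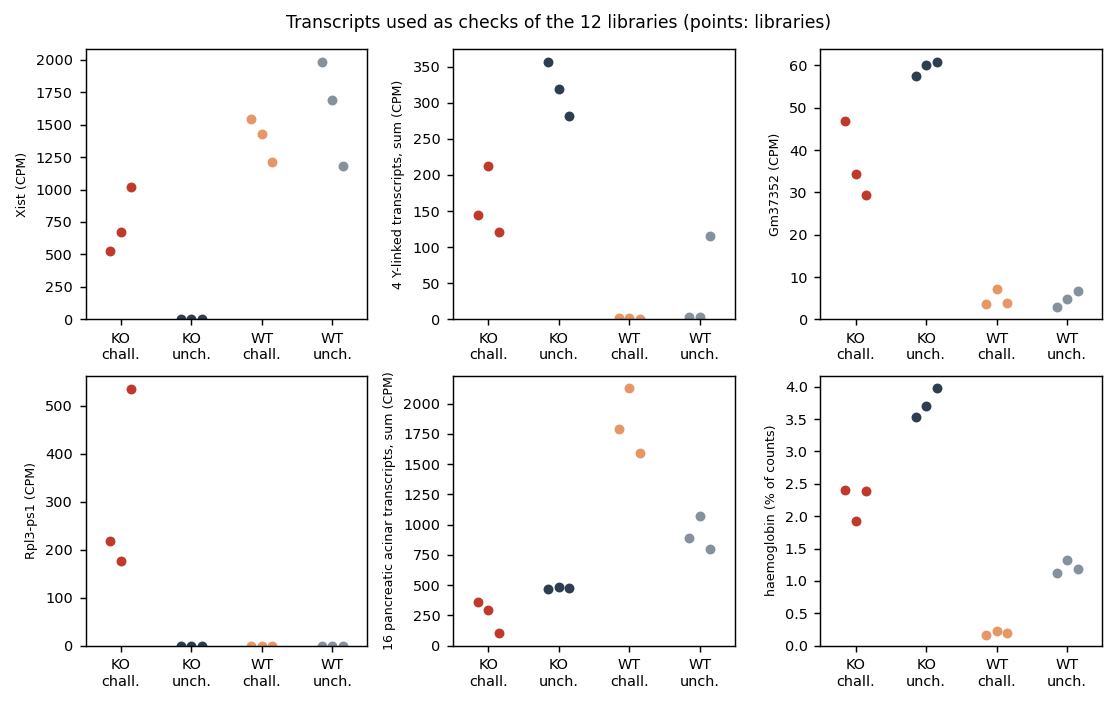
Levels of the transcripts used as checks in all 12 libraries, by group (KO, Mirc11 knockout; WT, wild-type; chall., challenged; unch., unchallenged), each point 1 library on a linear axis in CPM or, for haemoglobin, in percent of counts. The 3 challenged knockout libraries hold 523 to 1020 CPM of Xist, against 0.359 to 1.06 CPM in the unchallenged ones, together with Y-linked transcripts at 121 to 212 CPM.

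The challenged and unchallenged knockout libraries differed broadly. In edgeR's quasi-likelihood test, 4511 of 16694 genes (27.0%) differed at a Benjamini-Hochberg adjusted p below 0.05: 2596 were higher (15.6%) and 1915 lower (11.5%) in the challenged libraries. Changes of at least 2-fold were mostly rises, with 733 genes (4.39%) higher and 93 (0.557%) lower. The 3 challenged and 3 unchallenged libraries did not overlap for 6538 genes (39.2%). The median log2 fold change over all genes tested was -0.005. Without challenged replicate 3, 2273 genes were higher and 1466 lower, and 2210 of the rises and 1373 of the falls were called in both fits. The split between directions depended on scaling: 57.5% of called genes were higher with TMM factors and 46.7% with upper-quartile factors, which moved the median to -0.05. Below, log2 fold changes are challenged over unchallenged and are given ± SE or, for further genes, alone in parentheses. The counts of gene lists are to be read against these shares.

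Apart from BC018473, annotated as antisense, the largest rises with at least 5 CPM were in antimicrobial, inflammatory and heat shock genes. Cxcl2, a chemokine that attracts neutrophils, measured 83.0, 78.5 and 55.8 CPM in challenged knockout libraries, against 1.51, 0.853 and 0.884 CPM in unchallenged ones (log2 6.09 ± 0.24, edgeR adjusted p = 3.45e-09). Saa3, an acute phase protein, measured 51.5, 48.4 and 31.6 CPM after challenge, against 0.224, 0.180 and 0.540 CPM without it (log2 7.10 ± 0.31, edgeR adjusted p = 6.13e-09). Il1rn, the secreted antagonist of the interleukin-1 receptor, measured 85.3, 93.3 and 66.1 CPM after challenge, against 2.02, 1.21 and 1.13 CPM without it (log2 5.83 ± 0.20, edgeR adjusted p = 3.84e-10). In all 3 genes every challenged library lay far above every unchallenged one, and replicate 3 was the lowest of the challenged. Reg3b, an antibacterial lectin, measured 6.60, 8.69 and 6.00 CPM after challenge, against 0, 0 and 0 CPM without it, at least 143-fold higher when 3 counts over the unchallenged group are taken as its floor. Nos2, the inducible nitric oxide synthase of activated macrophages, measured 25.5, 19.2 and 15.7 CPM after challenge, against 0.336, 0.225 and 0.491 CPM without it (log2 5.84 ± 0.30, edgeR adjusted p = 1.26e-08). Gbp2b, an interferon-induced guanylate-binding protein, measured 11.6, 13.4 and 9.37 CPM after challenge, against 0.0561, 0.314 and 0.0982 CPM without it (log2 6.07 ± 0.31, edgeR adjusted p = 1.75e-09). The other genes in this set were Ccl2, a monocyte chemokine (5.72), the inducible chaperones Hspa1a (5.92) and Hspa1b (5.84), and BC018473. The fitted rise of BC018473 was the largest of the set (log2 10.43 ± 0.29, edgeR adjusted p = 2.2e-11), and this transcript is described last. By the rule that picked the set, all 10 had no overlap between the groups.

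The 10 largest falls were all of pancreatic digestive enzymes or their granule proteins. Amy2a2, Amy2a3 and Amy2a4, amylase copies whose counts were identical and cannot be separated, measured 32.9, 38.5 and 20.9 CPM in challenged knockout libraries, against 84.2, 79.8 and 94.8 CPM in unchallenged ones (log2 -1.48 ± 0.23, edgeR adjusted p = 0.00103). Sycn, a protein of pancreatic zymogen granules, measured 2.52, 2.08 and 1.06 CPM after challenge, against 6.22, 5.17 and 5.89 CPM without it (log2 -1.59 ± 0.21, edgeR adjusted p = 5.45e-05). Cpa1, a carboxypeptidase, measured 19.2, 19.5 and 6.51 CPM after challenge, against 35.1, 37.9 and 36.3 CPM without it (log2 -1.27 ± 0.31, edgeR adjusted p = 0.0143). In each of them replicate 3 was the lowest challenged library. Over the 16 acinar transcripts 12 fell and 1, Reg2, rose; without replicate 3 the rises numbered 2, and in a fit of the knockout libraries alone 4 genes fell. The summed level of the list was 358, 294 and 101 CPM after challenge and 467, 486 and 479 CPM without it. The part of carried-over pancreatic RNA in these falls was not tested.

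Effector genes moved in both directions. Of 21 cytotoxic granule genes 9 rose and 7 fell, with a median of 0.03; in the fit of knockout libraries alone 8 rose and 4 fell. Gzmb, the granzyme that starts apoptosis in target cells, measured 507, 506 and 450.3 CPM in challenged knockout libraries, against 249, 240.0 and 259 CPM in unchallenged ones (log2 0.97 ± 0.068, edgeR adjusted p = 6.91e-08). Gzmc, a granzyme of activated cytotoxic lymphocytes, measured 7.18, 7.61 and 5.26 CPM after challenge, against 1.29, 0.719 and 1.08 CPM without it (log2 2.72 ± 0.21, edgeR adjusted p = 1.93e-07). Prf1, the pore-forming perforin, measured 603, 500.5 and 588 CPM after challenge, against 691, 694 and 721 CPM without it (log2 -0.32 ± 0.085, edgeR adjusted p = 0.0124). Granzymes B and C were thus higher and perforin lower in every challenged library, the call on Prf1 being lost without challenged replicate 2 (adjusted p = 0.0642). Gzmf, a further granzyme, had 20 counts over the challenged libraries and 0 over the unchallenged ones, at least 5.97-fold higher. Nkg7, a granule membrane protein, measured 595, 530.5 and 548 CPM after challenge, against 784, 806 and 835 CPM without it (log2 -0.53 ± 0.076, edgeR adjusted p = 9.62e-05). Ctsw, a cathepsin of cytotoxic cells, measured 339.8, 275 and 318 CPM after challenge, against 451, 472 and 504 CPM without it (log2 -0.61 ± 0.088, edgeR adjusted p = 0.000107). Both fell with no overlap. Further changes were called for Srgn (0.60), the proteoglycan that holds granule contents, for Ctsc (0.44), which activates granzymes, and for Fasl (-0.38), a death ligand. Gzma had a log2 fold change of -0.22 (edgeR adjusted p = 0.0366) and lost its call under 9 alternatives.

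Of 14 cytokine genes of lymphocytes 8 rose and 1, Flt3l, fell (median 0.55, unchanged with the 1 member at 0 set to its bound). Ifng, which encodes interferon-gamma, measured 92.9, 102 and 138 CPM in challenged knockout libraries, against 71.8, 70.5 and 74.3 CPM in unchallenged ones (log2 0.62 ± 0.13, edgeR adjusted p = 0.00357). Tnf, tumour necrosis factor, measured 22.8, 23.4 and 18.7 CPM after challenge, against 7.90, 7.77 and 8.10 CPM without it (log2 1.45 ± 0.10, edgeR adjusted p = 5.92e-08). Il10, an anti-inflammatory cytokine, measured 5.13, 5.48 and 4.61 CPM after challenge, against 0.280, 0.270 and 0.147 CPM without it (log2 4.42 ± 0.24, edgeR adjusted p = 3.45e-09). The highest library differed between them, replicate 3 for Ifng and replicate 2 for Tnf and Il10, and no challenged library overlapped the unchallenged ones. Il22, a cytokine of lymphocytes at barriers, had 100 counts over the challenged libraries and 1 over the unchallenged ones, a ratio of 89.5 with a 95% counting interval of 15.7 to 3570. Il17a, a cytokine that recruits neutrophils, had 55 and 2 counts in the same order, a ratio of 24.6 (6.5 to 208). Csf2 (0.33), the growth factor GM-CSF, did not pass the test (edgeR adjusted p = 0.245).

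Among 4 chemokines typical of NK cells none rose and Ccl5 fell. Ccl5 measured 1203, 985 and 1171 CPM in challenged knockout libraries, against 1793, 1796 and 1881 CPM in unchallenged ones (log2 -0.70 ± 0.075, edgeR adjusted p = 6.27e-06). Ccl3 measured 168, 171 and 286 CPM after challenge, against 152, 149 and 148 CPM without it (log2 0.48 ± 0.17, edgeR adjusted p = 0.0645). Ccl4 measured 124, 115 and 156 CPM after challenge, against 99.2, 100.4 and 110.2 CPM without it (log2 0.35 ± 0.13, edgeR adjusted p = 0.0682). Both had their highest value in replicate 3 and no overlap, yet missed the threshold. Xcl1, which attracts cross-presenting dendritic cells, measured 68.3, 68.8 and 73.5 CPM after challenge, against 67.3, 68.7 and 70.3 CPM without it and overlapped (log2 0.03 ± 0.063, edgeR adjusted p = 0.781).

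**Figure D2:**
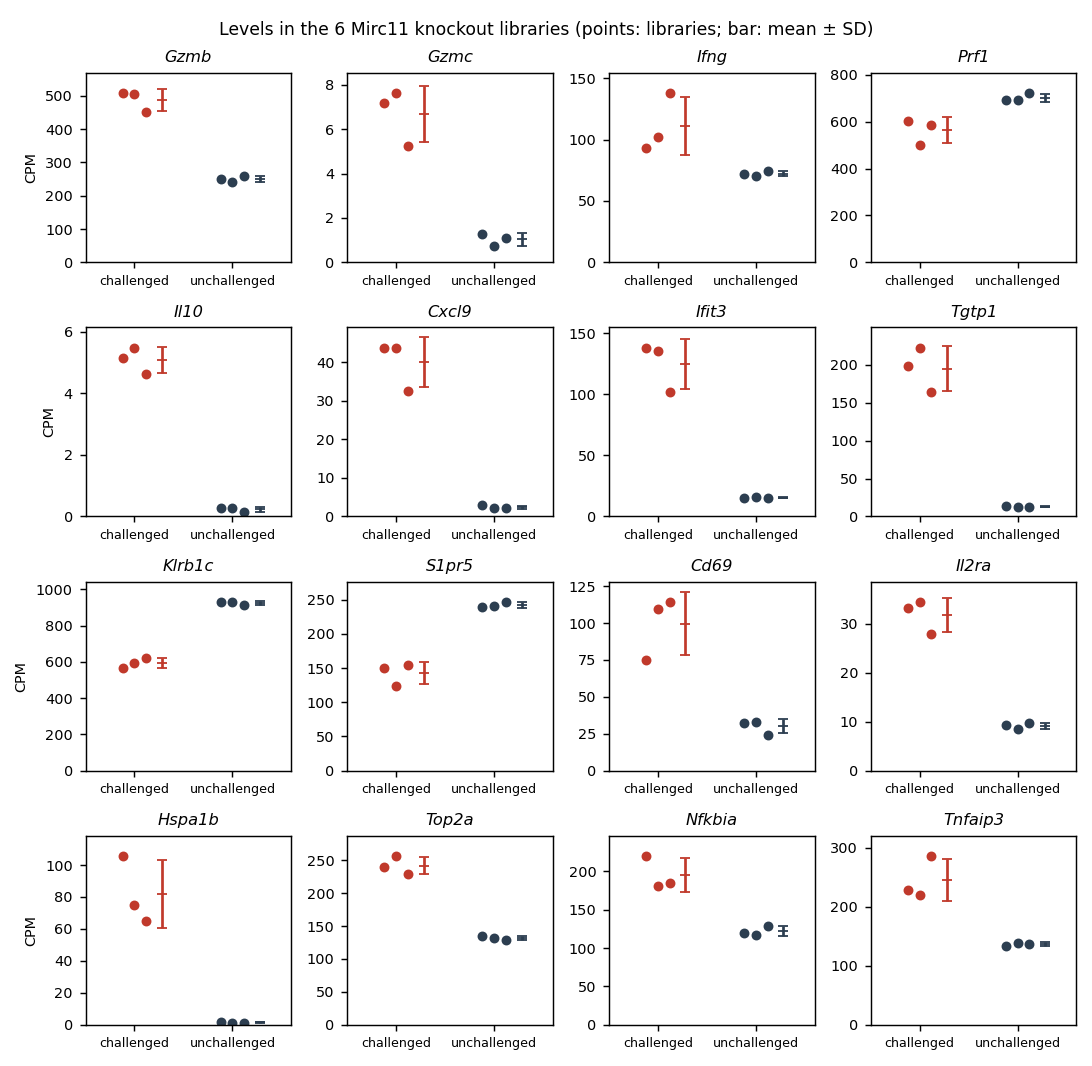
Levels of 16 genes in the 6 knockout libraries in CPM on linear axes that start at 0, challenged libraries to the left of unchallenged ones, each point 1 library and each bar the mean ± SD of 3. Rises such as that of Tgtp1 (164 to 223 CPM, against 12.1 to 13.7 CPM) and falls such as that of Klrb1c (566 to 622 CPM, against 913 to 932 CPM) show no overlap between the groups.

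NK receptors and their adaptors fell more often than they rose: of 42 genes 21 fell and 3 rose (median -0.35). Klrb1c, which encodes the NK1.1 antigen, measured 566, 596 and 622 CPM in challenged knockout libraries, against 932, 928 and 913 CPM in unchallenged ones (log2 -0.64 ± 0.059, edgeR adjusted p = 1.56e-06). Cd244, a receptor of the SLAM family, measured 192, 205 and 189 CPM after challenge, against 284, 282 and 284 CPM without it (log2 -0.54 ± 0.053, edgeR adjusted p = 2.89e-06). Klrc3, a lectin-like receptor of the NKG2 family, measured 26.3, 30.6 and 25.5 CPM after challenge, against 43.5, 45.1 and 41.3 CPM without it (log2 -0.66 ± 0.090, edgeR adjusted p = 7.09e-05). All of these were lower in every challenged library. The adaptors Hcst (-0.68) and Tyrobp (-0.52), which carry the signals of activating receptors, fell as well, as did the Ly49 family genes Klra4 (-0.47), Klra7 (-0.53) and Klra8 (-0.46). The rises were those of Tigit (0.32), an inhibitory receptor, Slamf6 (0.24) and Pilrb1 (0.77); with upper-quartile scaling 1 gene of the list rose and 26 fell. Klrg1, a receptor of mature NK cells, measured 41.3, 42.0 and 45.2 CPM after challenge, against 46.2, 47.6 and 47.1 CPM without it and did not pass the test (log2 -0.14 ± 0.062, edgeR adjusted p = 0.124). In bulk libraries fewer cells of a type and less RNA per cell cannot be told apart. Summed markers of B cells, plasma cells, platelets, neutrophils and macrophages were higher in the same libraries. Summed erythroid, dendritic cell and acinar markers were lower. The part of these shifts in the falls of NK receptors was not tested.

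Of 22 trafficking receptors and integrins 14 fell and 3 rose (median -0.38). S1pr5, the sphingosine-1-phosphate receptor through which NK cells leave lymphoid organs, measured 149.7, 124 and 154 CPM in challenged knockout libraries, against 239, 240.1 and 247 CPM in unchallenged ones (log2 -0.76 ± 0.091, edgeR adjusted p = 1.89e-05). Itga2, the integrin chain recognised as DX5 or CD49b on NK cells, measured 127, 123 and 121 CPM after challenge, against 190.5, 193 and 196 CPM without it (log2 -0.64 ± 0.066, edgeR adjusted p = 3.86e-06). Ccr7, which guides cells into lymph nodes, measured 87.3, 72.2 and 76.2 CPM after challenge, against 38.7, 35.6 and 42.5 CPM without it (log2 1.01 ± 0.082, edgeR adjusted p = 3.17e-07). S1pr5 and Itga2 were therefore lower and Ccr7 higher in all 3 challenged libraries. Cd69, an early activation antigen that holds lymphocytes in tissue, measured 75.0, 109 and 114 CPM after challenge, against 32.6, 33.2 and 24.4 CPM without it (log2 1.73 ± 0.19, edgeR adjusted p = 6.3e-05). The integrin chains Itgax (-0.74), Itgam (-0.40) and Itga4 (-0.42), and the chemokine receptors Cx3cr1 (-0.54), Ccr2 (-0.48) and Cxcr3 (-0.38) fell, whereas Cxcr4 rose (0.43).

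Cytokine receptors moved in both directions, 7 rising and 7 falling of 22 (median -0.09); with upper-quartile scaling 5 rose and 9 fell. Il2ra, the chain that gives the interleukin-2 receptor its high affinity, measured 33.1, 34.5 and 27.8 CPM in challenged knockout libraries, against 9.42, 8.44 and 9.67 CPM in unchallenged ones (log2 1.80 ± 0.10, edgeR adjusted p = 5.84e-09). Il18rap measured 673, 712 and 650.2 CPM after challenge, against 1074, 1074 and 1099 CPM without it (log2 -0.67 ± 0.059, edgeR adjusted p = 7.56e-07). Il18r1 measured 388, 441 and 380.4 CPM after challenge, against 622, 622 and 598 CPM without it (log2 -0.61 ± 0.063, edgeR adjusted p = 4.74e-06). Both chains of the interleukin-18 receptor thus fell while the interleukin-2 receptor chain rose in every challenged library. Il12rb1 (0.52), Il15ra (0.64) and Il21r (0.63) rose, Il2rb fell (-0.43), and Il12rb2, the signalling chain for interleukin-12, did not pass the test (log2 -0.16 ± 0.069, edgeR adjusted p = 0.104).

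Of 23 activation and checkpoint receptors or ligands 13 rose and 3 fell (median 0.47). Pdcd1, the inhibitory receptor PD-1, measured 7.90, 6.93 and 5.72 CPM in challenged knockout libraries, against 0.673, 0.674 and 0.982 CPM in unchallenged ones (log2 3.13 ± 0.19, edgeR adjusted p = 1.25e-08). Ctla4, another inhibitory receptor, measured 10.5, 13.4 and 11.1 CPM after challenge, against 2.19, 1.75 and 2.46 CPM without it (log2 2.45 ± 0.16, edgeR adjusted p = 3.07e-08). Cd274, the PD-1 ligand, measured 142, 150.5 and 116 CPM after challenge, against 60.5, 59.3 and 57.8 CPM without it (log2 1.20 ± 0.081, edgeR adjusted p = 4.15e-08). No challenged library overlapped an unchallenged one in these 3 genes. The costimulatory ligands Cd80 (2.10), Cd86 (1.45), Cd70 (2.30) and Tnfsf4 (1.79) also rose; Cd27, the receptor of Cd70, fell (-0.46). Lag3 (0.25) and Icos (0.23) did not pass the test.

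Of 32 transcription factors of NK cells 15 fell and 3 rose (median -0.22). Tbx21, the master regulator T-bet, measured 208, 172 and 193 CPM in challenged knockout libraries, against 288, 278 and 292 CPM in unchallenged ones (log2 -0.58 ± 0.072, edgeR adjusted p = 2.7e-05). Eomes, its relative, measured 267, 273 and 313 CPM after challenge, against 401, 382 and 382 CPM without it (log2 -0.45 ± 0.073, edgeR adjusted p = 0.00031). Gata3 measured 33.0, 30.6 and 35.2 CPM after challenge, against 48.1, 46.7 and 49.3 CPM without it (log2 -0.54 ± 0.068, edgeR adjusted p = 2.87e-05). These 3 were lower in every challenged library, and smaller falls were called for Ets1 (-0.27), Prdm1 (-0.32), Runx3 (-0.28) and Tcf7 (-0.24). Zbtb32, a zinc finger repressor needed for the expansion of NK cells in viral infection, measured 18.5, 14.4 and 12.6 CPM after challenge, against 1.51, 1.75 and 1.964 CPM without it (log2 3.11 ± 0.16, edgeR adjusted p = 2.83e-09). Tox2 rose too (0.87).

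Of the groups named in the series title, ubiquitin modifiers and NF-kB pathway genes had medians near 0 and AP-1 factors one of 0.38. Of 50 ubiquitin modifiers 11 rose and 4 fell, with a median of 0.01; with upper-quartile scaling 8 rose and 9 fell, and in the knockout libraries alone 7 rose and 3 fell. The largest rises were those of interferon-induced members, Usp18 (2.35), which removes ISG15 from proteins, Isg15 itself (2.02), Herc6 (1.17), the ligase that attaches ISG15 in mice, and Trim30a (0.95). Tnfaip3, the deubiquitinase A20 that restrains NF-kB, measured 229, 221 and 286 CPM in challenged knockout libraries, against 133, 139.5 and 136 CPM in unchallenged ones (log2 0.85 ± 0.13, edgeR adjusted p = 0.00031). Cyld, a deubiquitinase that acts on TRAF6, measured 148, 173 and 157 CPM after challenge, against 158, 154 and 140.1 CPM without it (log2 0.08 ± 0.073, edgeR adjusted p = 0.472). Cblb, a ligase that restrains NK cells, measured 163, 166 and 155 CPM after challenge, against 178, 178 and 177 CPM without it (log2 -0.14 ± 0.054, edgeR adjusted p = 0.0692). A20 was higher in every challenged library, the range of Cyld overlapped between the groups, and Cblb was lower in every challenged library without passing the test. Itch, another ligase, had a log2 fold change of 0.05 (edgeR adjusted p = 0.748) with overlapping groups, and Cbl (-0.35) and Smurf1 (-0.43) fell.

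Of 40 genes between TRAF6 and NF-kB 11 rose and 1, Tab2, fell (median 0.04); with upper-quartile scaling 4 fell. Traf6 measured 74.0, 78.6 and 83.5 CPM in challenged knockout libraries, against 82.1, 85.4 and 77.8 CPM in unchallenged ones (log2 -0.06 ± 0.068, edgeR adjusted p = 0.6). Nfkbia, the inhibitor that NF-kB itself induces, measured 220.1, 181 and 185 CPM after challenge, against 120.1, 117 and 129 CPM without it (log2 0.68 ± 0.075, edgeR adjusted p = 9.43e-06). Irak3, which restrains signals of Toll-like receptors, measured 21.1, 21.1 and 17.9 CPM after challenge, against 10.03, 11.1 and 10.8 CPM without it (log2 0.91 ± 0.092, edgeR adjusted p = 3.51e-06). Traf6 overlapped between the groups, whereas the other genes were higher in every challenged library. Of the NF-kB subunits Nfkb2 (0.48) and Rel (0.37) rose, and Nfkb1 (-0.06), Rela (-0.15) and Relb (0.22) did not pass the test. The adaptor and kinases upstream, Myd88 (0.12), Map3k7 (0.04) and Ikbkb (-0.14), did not pass either.

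Of 19 AP-1 factors 9 rose and none fell (median 0.38); with upper-quartile scaling 1 fell. Fos measured 324, 289.8 and 408 CPM in challenged knockout libraries, against 185, 195 and 186 CPM in unchallenged ones (log2 0.85 ± 0.098, edgeR adjusted p = 1.3e-05). Jun measured 322, 244 and 329 CPM after challenge, against 163, 162 and 162 CPM without it (log2 0.88 ± 0.093, edgeR adjusted p = 5.67e-06). Junb measured 538, 375 and 583 CPM after challenge, against 462, 465 and 472 CPM without it (log2 0.10 ± 0.17, edgeR adjusted p = 0.729). Fos and Jun were thus higher in every challenged library, and Junb overlapped. Batf2, an interferon-induced factor of the family, measured 9.62, 8.06 and 5.86 CPM after challenge, against 0.560, 0.314 and 0.638 CPM without it (log2 3.97 ± 0.26, edgeR adjusted p = 2.58e-08). Atf3, a factor induced by stress, measured 9.12, 9.73 and 8.17 CPM after challenge, against 2.24, 2.56 and 3.34 CPM without it (log2 1.72 ± 0.19, edgeR adjusted p = 7.04e-06). Of 23 early response genes, many of them targets of mitogen signals, 10 rose and none fell (median 0.31), among them the phosphatases Dusp1 (1.09) and Dusp4 (1.52), Gadd45b (1.51), Egr1 (0.45) and Myc (0.56). Without challenged replicate 3, 9 of them rose and 1 fell.

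Interferon targets rose together, with the highest share of rises among the 35 lists plotted. Of 50 interferon-stimulated genes 46 rose and none fell (median 1.42, against -0.005 over all genes tested), and the count was the same without replicate 3, in the knockout libraries alone and with upper-quartile scaling. Ifit3, an antiviral protein of a complex that binds viral RNA, measured 138, 135 and 102 CPM in challenged knockout libraries, against 15.2, 15.7 and 15.3 CPM in unchallenged ones (log2 3.02 ± 0.10, edgeR adjusted p = 3.83e-11). Oas2, a sensor of double-stranded RNA, measured 92.9, 85.2 and 68.8 CPM after challenge, against 8.63, 10.2 and 10.7 CPM without it (log2 3.06 ± 0.11, edgeR adjusted p = 4.29e-11). Replicate 3 was the lowest challenged library for both genes and still stood far above the unchallenged ones. The members that did not pass were Isg20 (0.20), Slfn8 (0.10), Epsti1 (-0.03) and Sp100 (-0.02).

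Among GTPases induced by interferon-gamma and genes of antigen presentation, 32 of 36 rose and none fell (median 0.65). Tgtp1, a GTPase of the family that attacks vacuoles of intracellular microbes, measured 198, 223 and 164 CPM in challenged knockout libraries, against 13.7, 13.02 and 12.1 CPM in unchallenged ones (log2 3.91 ± 0.11, edgeR adjusted p = 1.92e-11). Gbp2, a guanylate-binding protein, measured 238, 253 and 199.7 CPM after challenge, against 37.2, 37.9 and 36.9 CPM without it (log2 2.63 ± 0.085, edgeR adjusted p = 2.46e-11). Irgm1, a regulator of these GTPases, measured 242, 239 and 204 CPM after challenge, against 63.3, 66.4 and 71.2 CPM without it (log2 1.77 ± 0.073, edgeR adjusted p = 2.49e-10). In all 3 the unchallenged libraries lay close together and well below the challenged ones. Antigen presentation moved less: the MHC class II genes H2-Aa (0.53), H2-Ab1 (0.65) and H2-Eb1 (0.63), B2m (0.55) and the immunoproteasome subunit Psmb9 (0.67) rose, while the class I heavy chains H2-K1 (0.04) and H2-D1 (-0.01) did not pass the test. Tgtp1 and Tgtp2 are near-identical copies, so reads may be divided between them.

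The promoters of these genes were searched, in RefSeq's windows of 250 bases before to 50 bases after the start (GRCm38.p6), for GAAA, any 2 bases and GAAA again, a form of the interferon-stimulated response element bound by interferon regulatory factors, on both strands. It stood in 19 of the 38 interferon-stimulated genes that matched the promoter table (50%) and in 12 of the 26 matched interferon-gamma genes (46.2%), against 3.99% of 27025 genes with a promoter. The sites nearest the start are shown on the strand of the gene for 4 strong risers that held one, 1 from each pair of near copies, with the motif, or its reverse complement, in capitals. They lie at chr19:34583397-34583426 (Ifit3, plus strand, 122 bases before the start), chr11:48992304-48992333 (Tgtp1, minus strand, 77 bases), chr3:142620594-142620623 (Gbp2, plus strand, 59 bases) and chr11:58199512-58199541 (Igtp, plus strand, 34 bases).
Ifit3: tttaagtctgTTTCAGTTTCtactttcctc
Tgtp1: tccaggaatcGAAACTGAAAcctacctgac
Gbp2: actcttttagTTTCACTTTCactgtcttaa
Igtp: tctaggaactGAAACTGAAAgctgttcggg
The motif TTCNNNGAA, the gamma-activated site of interferon-gamma signalling, stood in 10 of the 26 matched interferon-gamma genes (38.5%) and in 7 of the 38 interferon-stimulated genes (18.4%), against 9.55% of all. In Tgtp1 and Igtp it began 88 and 45 bases before the start and did not overlap the other motif. Ifi44 and Oasl2 held neither motif in this window. Ifit3b holds the same 30 bases as Ifit3, 154 bases before its start, and Tgtp2 a match 70 bases before its start. A match is a description of the letters and does not show binding.

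Chemokines and cytokines of myeloid and interferon-treated cells had the highest median of the 35 lists: of 27 genes 21 rose and 2, Ccl6 and Ccl9, fell (median 1.68, the same with the 3 members that had 0 counts without challenge set to their bounds). Cxcl9, a ligand of the receptor CXCR3, measured 43.9, 43.8 and 32.7 CPM in challenged knockout libraries, against 2.86, 2.29 and 2.11 CPM in unchallenged ones (log2 4.06 ± 0.15, edgeR adjusted p = 7.17e-11). Cxcl10, another such ligand, measured 76.1, 73.0 and 58.5 CPM after challenge, against 4.82, 5.34 and 4.32 CPM without it (log2 3.84 ± 0.12, edgeR adjusted p = 2.2e-11). Il1a, interleukin-1 alpha, measured 16.6, 16.02 and 13.7 CPM after challenge, against 0.560, 0.853 and 0.491 CPM without it (log2 4.57 ± 0.19, edgeR adjusted p = 3.19e-10). In each of them every challenged library was several times above every unchallenged one. Cxcl3, a neutrophil chemokine, had 324 counts after challenge and 0 without it, at least 96.7-fold higher, and the monocyte chemokine Ccl7 had 113 and 0 counts in the same order, at least 33.7-fold higher. Il1b (2.32), Il27 (1.40), Il12b (1.25), Il18 (1.26) and Il15 (1.22) rose, and Il6 (0.34) did not pass the test.

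Markers of myeloid cells moved with these genes. The sum of 21 neutrophil markers was 1140 to 1660 CPM after challenge and 588 to 612 CPM without it, and that of 23 macrophage and monocyte markers 1180 to 1560 CPM and 887 to 933 CPM in the same order; no marker was at 0 in a group, and the part of these cells in the rises was not tested. Of 20 neutrophil markers tested 16 rose and 3 fell. Mmp8, neutrophil collagenase, measured 111, 122 and 92.4 CPM in challenged knockout libraries, against 6.22, 6.06 and 5.84 CPM in unchallenged ones (log2 4.16 ± 0.14, edgeR adjusted p = 7.95e-11). S100a9, a calcium-binding protein of neutrophils and monocytes, measured 471, 484 and 307 CPM after challenge, against 136, 136 and 146 CPM without it (log2 1.59 ± 0.14, edgeR adjusted p = 3.22e-06). Ngp, a granule protein of immature neutrophils, measured 70.4, 62.6 and 43.8 CPM after challenge, against 78.2, 75.0 and 81.5 CPM without it (log2 -0.41 ± 0.13, edgeR adjusted p = 0.0284). Mmp8 and S100a9 were higher and Ngp lower in every challenged library; the fall of Ngp lost its call under 8 alternatives, while the granule genes Camp (-0.77) and Ltf (-0.65) fell too. Of 23 macrophage markers 16 rose and none fell (median 0.9), among them Cd14, the lipopolysaccharide co-receptor (4.16), the Fc receptor Fcgr4 (2.03), the complement gene C1qa (1.22) and Spic, a factor of red pulp macrophages (1.61). Lyz2, lysozyme of myeloid cells, measured 325, 303 and 256 CPM after challenge, against 265, 265 and 281 CPM without it and overlapped (log2 0.12 ± 0.086, edgeR adjusted p = 0.325).

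Lymphoid markers rose as well. Of 20 B cell markers 16 rose and none fell (median 0.58), with a sum of 5220 to 5820 CPM after challenge and 3630 to 3850 CPM without it. Of 11 plasma cell markers 10 rose and 1, Prdm1, fell; Igkc, the kappa light chain, measured 1307, 1218 and 1299 CPM in challenged knockout libraries, against 655, 667 and 716 CPM in unchallenged ones (log2 0.91 ± 0.082, edgeR adjusted p = 1.16e-06). Igkc was higher in all challenged libraries. Of 17 T cell markers 11 rose and 2 fell (median 0.45), though their sum overlapped (921 to 1010 CPM, against 931 to 994 CPM). Cd3e, a chain of the T cell receptor complex, measured 38.4, 34.5 and 45.4 CPM after challenge, against 23.0, 21.1 and 26.4 CPM without it (log2 0.74 ± 0.11, edgeR adjusted p = 0.000185). Cd3g measured 43.6, 45.3 and 55.9 CPM after challenge, against 27.8, 27.8 and 27.9 CPM without it (log2 0.79 ± 0.088, edgeR adjusted p = 8.96e-06). The 2 that fell, Trbc1 (-0.45) and Tcf7, are also transcribed in NK cells.

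Of 18 erythroid markers 11 fell and none rose (median -0.43), and their sum was 20100 to 25800 CPM after challenge, against 37200 to 41900 CPM without it. Hba-a1, alpha globin, measured 5701, 4494 and 6198 CPM in challenged knockout libraries, against 8716, 9144 and 9775 CPM in unchallenged ones (log2 -0.75 ± 0.11, edgeR adjusted p = 9.44e-05); its copy Hba-a2 shares most of its sequence. Of 14 platelet markers 7 rose and none fell (median 0.36). Ppbp, a platelet chemokine, measured 54.1, 60.2 and 72.3 CPM after challenge, against 33.9, 33.3 and 28.03 CPM without it (log2 0.97 ± 0.13, edgeR adjusted p = 7.73e-05). Thbs1, thrombospondin, measured 129.5, 116 and 109 CPM after challenge, against 34.4, 34.6 and 32.3 CPM without it (log2 1.81 ± 0.14, edgeR adjusted p = 8.01e-07). Dendritic cell markers were mixed, 3 rising and 5 falling of 15 (3 and 3 without replicate 3), with Siglech, of plasmacytoid dendritic cells, at -0.74 and Cd209a, a lectin, at -1.07. Mast cell and basophil markers (3 of 11 rose, 3 fell, or 5 with upper-quartile scaling), markers of group 2 and 3 innate lymphoid cells (6 of 11 rose, 1 fell) and stromal markers (4 of 16 rose, none fell) made up the rest; without replicate 3 the rises numbered 3 in innate lymphoid and 1 in stromal markers, and with upper-quartile scaling 4 and 3, with 2 falls in innate lymphoid markers.

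**Figure D3:**
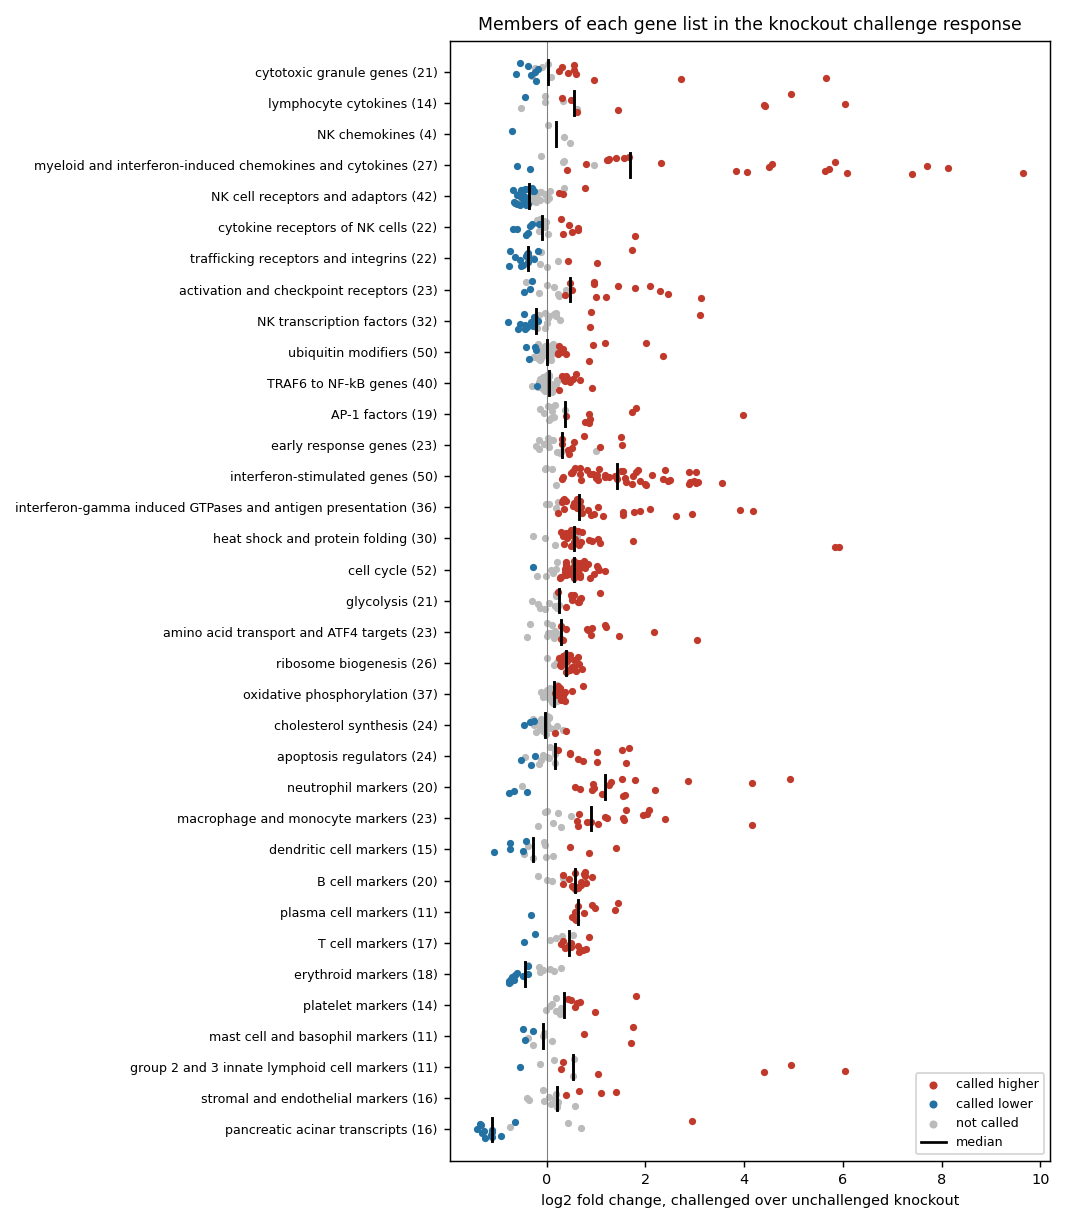
Log2 fold changes of the tested members of 35 gene lists, challenged over unchallenged knockout, each point 1 gene coloured by its call in edgeR and each black bar the median of a list, with the number of tested members in parentheses. Interferon, heat shock, cell cycle and ribosome biogenesis genes lie almost wholly to the right of 0 and NK receptors, trafficking receptors and acinar transcripts mostly to the left.

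Heat shock and protein folding genes rose, 25 of 30 with none falling (median 0.56). Hspa1b, an inducible HSP70, measured 106, 74.8 and 64.8 CPM in challenged knockout libraries, against 1.63, 1.39 and 1.28 CPM in unchallenged ones (log2 5.84 ± 0.21, edgeR adjusted p = 8.33e-10). Hsp90aa1, the inducible HSP90, measured 489.5, 566 and 537 CPM after challenge, against 263, 253 and 242 CPM without it (log2 1.07 ± 0.071, edgeR adjusted p = 3.34e-08). Hspd1, the mitochondrial chaperonin, measured 227, 245 and 244 CPM after challenge, against 130.1, 131 and 132 CPM without it (log2 0.86 ± 0.054, edgeR adjusted p = 1.69e-08). All 3 were higher in every challenged library. Hspa1a rose as well (5.92); it is near-identical to Hspa1b, so the split of reads between the pair is uncertain. Hspa8, the constitutive HSP70, rose too (0.34). The heat shock element (GAA, TTC and GAA, each 2 bases apart) stood in 4 of the 26 matched promoters of the list (15.4%), against 0.662% of 27025 genes. The promoter of Hspe1 (1.04), the partner of Hspd1, held it 84 bases before the start at chr1:55088056-55088084 on the plus strand, shown with the motif in capitals.
Hspe1: ccgttctaGAACCTTCCGGAAggccccgc
Hspa1a, Hspa1b and Hspb1 held no match to these letters in the window.

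Cell cycle genes rose, 43 of 52, and 1, E2f2, fell (median 0.56). Top2a, the topoisomerase of dividing cells, measured 239.6, 256 and 229.7 CPM in challenged knockout libraries, against 135, 132 and 128 CPM in unchallenged ones (log2 0.88 ± 0.096, edgeR adjusted p = 7.6e-06). Mcm10, a replication factor, measured 27.8, 25.0 and 26.9 CPM after challenge, against 11.4, 10.9 and 13.2 CPM without it (log2 1.17 ± 0.11, edgeR adjusted p = 1.73e-06). Mki67, a proliferation antigen, measured 471, 484 and 506 CPM after challenge, against 400.0, 391.7 and 416 CPM without it (log2 0.27 ± 0.086, edgeR adjusted p = 0.027). All challenged libraries lay above all unchallenged ones, but the rise of Mki67 was small and lost its call with upper-quartile scaling and under 4 other alternatives. Ribosome biogenesis genes rose in 23 of 26 cases with none falling (median 0.4), for example Npm1, nucleophosmin (0.71), and Gnl3, nucleostemin (0.64).

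Of 21 glycolysis genes 11 rose and none fell (median 0.25); with upper-quartile scaling 2 fell. Gapdh measured 825, 684 and 739 CPM in challenged knockout libraries, against 475, 475 and 455 CPM in unchallenged ones (log2 0.68 ± 0.074, edgeR adjusted p = 7.47e-06). Ldha, which makes lactate, measured 450.0, 392.2 and 378 CPM after challenge, against 259, 278 and 289.8 CPM without it (log2 0.56 ± 0.075, edgeR adjusted p = 5.5e-05). Slc2a1, the glucose transporter, had a log2 fold change of -0.04 and did not pass the test. Of 23 amino acid transport and ATF4 target genes 13 rose and none fell (median 0.3). Slc7a11, the cystine transporter, measured 17.6, 24.1 and 16.1 CPM after challenge, against 2.41, 2.38 and 2.21 CPM without it (log2 3.04 ± 0.22, edgeR adjusted p = 1.87e-07), and it rose with Trib3 (2.17), Asns (0.91) and Psat1 (0.83). Of 37 oxidative phosphorylation genes 14 rose and none fell (median 0.15), led by Cycs, cytochrome c (0.73). Cholesterol synthesis showed 2 rises and 3 falls of 24 genes (median -0.04; 1 rise and 2 falls without replicate 3, 1 rise and 4 falls with upper-quartile scaling), near or below the background in either direction. Of 24 apoptosis regulators 10 rose and 3 fell (median 0.17): Cdkn1a, a p53 target that arrests the cell cycle, rose (1.67) with the death receptor Fas (1.52) and the survival genes Bcl2a1a (1.61) and Bcl2a1b (1.02), while Bcl2 fell (-0.31).

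The response of wild-type preparations labelled as challenged with Listeria, from 6 other libraries, was larger. Whether dose, route and time of challenge were equal in the genotypes is not given. There 10577 genes (63.4%) passed the same test, 5411 higher and 5166 lower. Of the genes higher in knockout after challenge 2352 were also higher in wild-type, which is 90.6% of the knockout list and 43.5% of the wild-type list. Of the genes lower in knockout 1648 were also lower in wild-type, 86.1% of the knockout list and 31.9% of the wild-type list. Across genes, which are not independent replicates, the log2 fold changes of the genotypes correlated with Pearson's r = 0.663 and Spearman's rho = 0.66. Of the 4000 genes called in the same direction, 2483 had a response called smaller in knockout, 30 a larger one, and for 1487 the difference was not called. The median ratio of the knockout to the wild-type log2 fold change in these genes was 0.483. The difference between the responses was called for 5876 genes (35.2%), with the knockout response more positive for 2791 (16.7%) and more negative for 3085 (18.5%). Xist rose in the challenged knockout libraries only (difference 10.25 ± 0.53, edgeR adjusted p = 5.62e-07), so this difference carries the shift in sex-linked transcripts described above, together with the Y-linked transcripts of unchallenged wild-type replicate 4, and an effect of genotype and that shift cannot be told apart. Without that wild-type library the knockout response was more positive for 2451 genes and more negative for 2734.

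**Figure D4:**
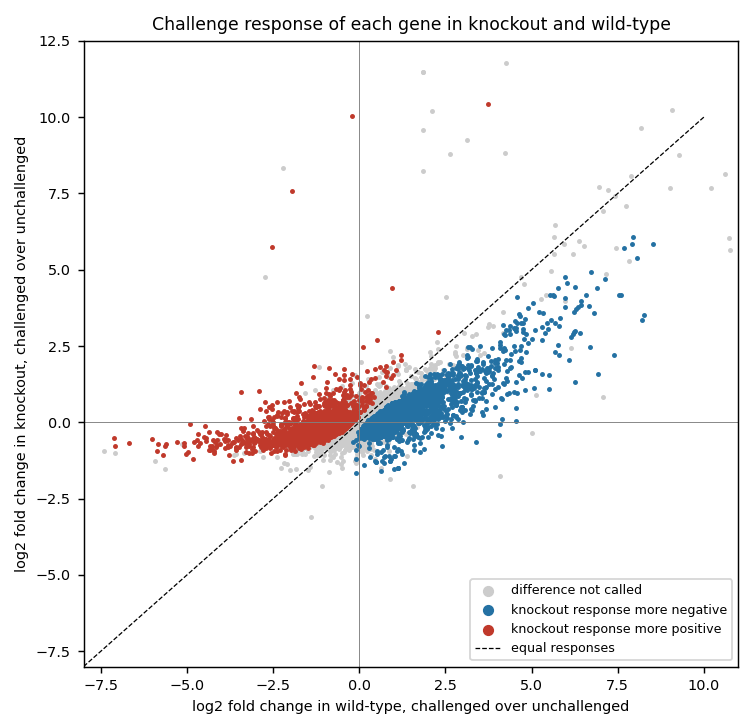
Log2 fold change with challenge in knockout (vertical axis) and in wild-type (horizontal axis), each point 1 gene. Only genes with a mean of at least 1 CPM in a knockout group are drawn. Points are coloured where edgeR called the difference between the responses, and a dashed line marks equal responses. Most points lie nearer to 0 on the vertical than on the horizontal axis. Pearson's r was 0.699 across genes at this level and 0.663 across all 16694 genes tested.

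The difference was of unequal size across gene groups. Counts of list members with the same or opposite direction below use the signs of the fold changes, whether or not either response was called. They are to be read against the 35.2% of all genes tested with a called difference of any kind. Of 50 interferon-stimulated genes 45 moved in the same direction in both genotypes with a smaller response in knockout, at medians of 1.42 in knockout and 2.54 in wild-type. For Isg15 the log2 fold change was 2.02 in knockout and 4.64 in wild-type (difference -2.63 ± 0.15, edgeR adjusted p = 1.23e-08). Among NK receptors 31 of 42 had a smaller response in knockout (medians -0.35 in knockout and -1.31 in wild-type), for example Klrb1c with -0.64 and -2.60 in that order (difference 1.96 ± 0.085, edgeR adjusted p = 2.96e-09). S1pr5 had -0.76 in knockout and -3.78 in wild-type (difference 3.02 ± 0.14, edgeR adjusted p = 3.93e-09). Cell cycle genes had 45 of 52 smaller in knockout (medians 0.56 in knockout and 1.63 in wild-type). By contrast, 20 of 26 ribosome biogenesis genes showed no called difference (medians 0.4 in knockout and 0.63 in wild-type). For Hspa1b the responses were 5.84 in knockout and 5.94 in wild-type (difference -0.10 ± 0.34, edgeR adjusted p = 0.852, 95% interval -0.84 to 0.64), and for Pdcd1 3.13 and 3.73 in the same order (difference -0.60 ± 0.27, edgeR adjusted p = 0.0983, 95% interval -1.18 to -0.03).

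In the signalling genes, Traf6 had a log2 fold change of -0.06 in knockout and 0.21 in wild-type (difference -0.27 ± 0.096, edgeR adjusted p = 0.0391), Nfkb1 of -0.06 and 0.48 (difference -0.54 ± 0.089, edgeR adjusted p = 0.00026) and Nfkbia of 0.68 and 1.82 (difference -1.15 ± 0.11, edgeR adjusted p = 1.09e-06). Of the 40 genes between TRAF6 and NF-kB 22 moved in the same direction with a smaller response in knockout, and for 15 the difference was not called. Of the 50 ubiquitin modifiers these numbers were 22 and 25. Fos went against this order, with 0.85 in knockout and 0.31 in wild-type (difference 0.55 ± 0.14, edgeR adjusted p = 0.00598), and Jun had 0.88 and 0.75 with no called difference (difference 0.13 ± 0.13, edgeR adjusted p = 0.477, 95% interval -0.15 to 0.41).

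The genes with the largest differences included genes known from neutrophils and red cells. More negative in knockout were the neutrophil genes Lcn2, a siderophore-binding protein (2.2 in knockout and 7.38 in wild-type; difference -5.18 ± 0.24, edgeR adjusted p = 9.61e-09), and Ngp (-0.41 and 4.06 in the same order; difference -4.46 ± 0.20, edgeR adjusted p = 5.29e-09), together with Mrgpra2a, Mrgpra2b, Npr1, Nrg1, Flrt3 and Spata31d1b. Lcn2 measured 171, 144 and 118 CPM after challenge, against 29.6, 32.2 and 32.3 CPM without it in knockout libraries, so it rose in both genotypes. Its unchallenged mean already differed, at 31.4 CPM in knockout and 1.91 CPM in wild-type. For Ngp the unchallenged means were 78.2 CPM in knockout and 4.69 CPM in wild-type, and the challenged means 58.9 and 78.1 CPM. More positive in knockout were the red cell membrane genes Slc4a1 (-0.70 in knockout and -5.84 in wild-type; difference 5.14 ± 0.27, edgeR adjusted p = 7.46e-08) and Rhd, with Btnl10, Cyp17a1, Cd209a, Apol8, Cecr6 and BC018473. All except BC018473 fell in both genotypes, by log2 fold changes of -1.07 to -0.56 in knockout. Unchallenged Slc4a1 means were 723 CPM in knockout and 135 CPM in wild-type, and challenged means 445 and 2.35 CPM. Unchallenged Cecr6 was lower in knockout, at 5.71 CPM, against 9.15 CPM in wild-type. The part of unequal unchallenged levels in these differences was not tested.

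Some groups moved in opposite directions in the genotypes. Of the genes called in both, 58 were higher in knockout and lower in wild-type and 73 the reverse, and the difference was called for all 131. By the wider count of signs, which does not ask that either response be called, 14 of 17 T cell markers were opposite with a called difference (medians 0.45 in knockout and -0.64 in wild-type). So were 11 of 14 platelet markers (0.36 in knockout and -1.97 in wild-type) and 12 of 16 acinar transcripts (-1.11 in knockout and 0.96 in wild-type). A difference of any kind was called for 35.2% of all genes tested. The acinar sum was 101 to 358 CPM in challenged knockout and 467 to 486 CPM in unchallenged knockout libraries, and 1590 to 2130 CPM in challenged and 801 to 1070 CPM in unchallenged wild-type libraries. Of 18 erythroid markers 11 fell in each genotype (medians -0.43 in knockout and -2.47 in wild-type).

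**Figure D5:**
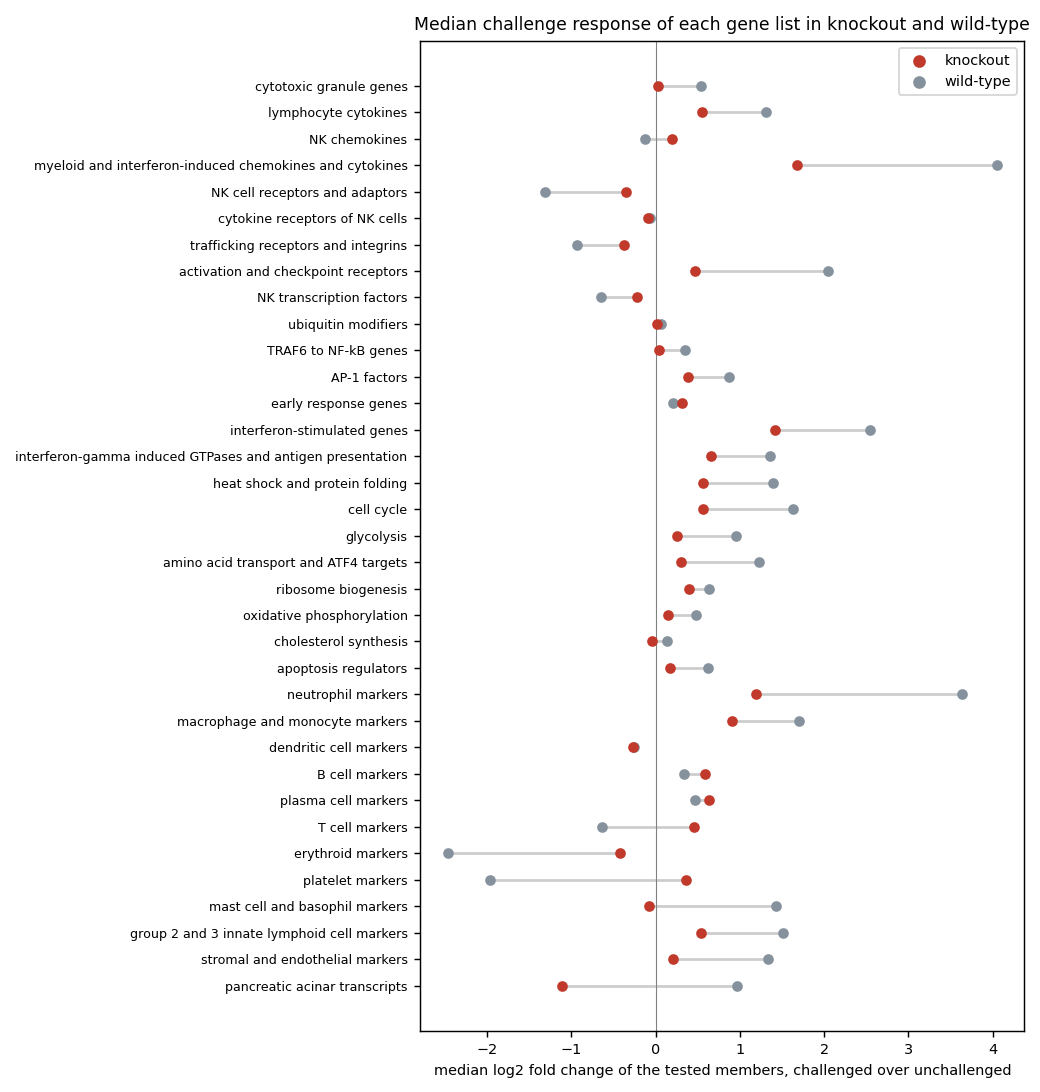
Median log2 fold change of the tested members of each gene list with challenge, knockout in red and wild-type in grey, joined by a line. The knockout median is the nearer to 0 except in early response genes, NK chemokines, cytokine receptors, dendritic, B and plasma cell markers and acinar transcripts, and the medians lie on opposite sides of 0 in NK chemokines, cholesterol synthesis genes, T cell, platelet, and mast cell and basophil markers, and acinar transcripts.

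A few transcripts were present in the challenged knockout libraries alone, at 3 CPM or more in each of them and under 2 CPM in the other 9 libraries; these 7 were picked by this criterion after their values were seen. Gm26825, annotated as a long noncoding RNA on chromosome 5 (5781530 to 5783636, GRCm38), measured 218.9, 195.7 and 312 CPM, against at most 1.32 CPM elsewhere. BC018473, annotated as antisense on chromosome 11 (116752167 to 116759373), measured 116, 108.7 and 141.3 CPM, against at most 0.731 CPM elsewhere. Both were highest in replicate 3. Rpl3-ps1, a pseudogene of Rpl3, which encodes a ribosomal protein, on the X chromosome, measured 218, 177.3 and 535.4 CPM, while Rpl3 itself measured 1159, 1030 and 642.8 CPM in the same libraries. The sum of both was 1377, 1207 and 1178 CPM after challenge, against 1210, 1207 and 1298 CPM without it. In replicate 3, where the copy was highest, Rpl3 was lowest, and the sum stayed near that of the unchallenged libraries; reads of the parent and the copy are hard to separate. The others were Gm8210 and Gm13841, which had identical counts, Gm3375 and Gm42429, at 3.98 to 24.3 CPM. The sources used here do not give the strand setting of the counting, so an antisense transcript and its partner may share reads.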

How the data were processed

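PolyA RNA of 12 libraries was sequenced after Trizol extraction and TruSeq library construction, per the labels. The submitters' processing notes name the tools RSEM 1.3.0, Bowtie2 2.2.8, bcl2fastq and Trim Galore 0.4.1 and the build GRCm38. The values deposited by the authors are whole-number counts per gene, without normalization; RSEM gives estimated counts, and the sources used here do not say how these became whole. Genes were filtered with filterByExpr, scaled by TMM and fitted over all 12 libraries, with a term per group, with edgeR 4.0.16 in R 4.3.3, using its quasi-likelihood F test with robust estimation. The 3 contrasts were challenge in knockout, challenge in wild-type and their difference, each adjusted by Benjamini-Hochberg over 16694 genes and called at 0.05. Standard errors come from the fold change and its F statistic, and CPM use TMM-scaled totals. The fit was tested on simulated data. DESeq2 1.42.0 was an alternative.

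The members and the 37 gene lists were chosen with earlier results of these data known. Named genes were the 10 largest changes per direction at 5 CPM or more with no overlap, up to 4 members of each list by p, a chosen panel, and the 8 largest differences between genotypes per direction; other list members are given as examples of their list. Genes with a Gm, AC or Rik clone name, pseudogenes, immunoglobulin and T cell receptor segments and sex-linked genes stayed out of the largest changes. Floors and intervals cover counting error only, since they use counts summed over the 3 libraries of a group and leave out the spread between libraries. Reads carry no molecular identifiers. No library duplicated another: squared differences within groups were 3.38 to 27 times counting noise. Replicate numbers in the titles did not pair the knockout libraries.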

Additional observations from a re-analysis of the deposited data

Results flagged for a closer look

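The genes below had challenge responses called in opposite directions in the genotypes, with the difference itself called by edgeR; values are the knockout minus the wild-type log2 response. The pancreatic enzyme genes, lower in knockout and higher in wild-type after challenge, had differences of -2.62 for Amy2a2, Amy2a3 and Amy2a4 (identical counts), -2.21 for Sycn, -2.18 for Cpa1, -2.16 for Prss2, -2.14 for Try5 and -2.02 for Zg16. Fcer1a, the mast cell and basophil receptor for immunoglobulin E, had -2.08, Ngp, the neutrophil granule gene, -4.46, and Prf1, perforin, -0.91, each lower in knockout and higher in wild-type. Higher in knockout and lower in wild-type were the T cell receptor complex genes Cd3d (1.07), Cd3e (1.22) and Cd3g (1.24) and the platelet genes Ppbp (2.80) and Treml1 (2.85).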

How the results depend on the processing

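Of the 185 named genes called in the knockout response, 154 kept their call under every alternative, 31 lost it under at least 1, and none changed direction. Genes called higher (2596) numbered 2452 with DESeq2, 2263 with upper-quartile scaling, 2487 without a filter beyond 1 count and 2135 in the knockout libraries alone; genes called lower (1915) numbered 2116, 2583, 1525 and 1513 in the same order. Leaving out 1 library at a time gave 2065 to 2606 higher and 1301 to 2329 lower genes, and for the difference between genotypes 2417 to 2975 with the knockout response more positive and 2717 to 3448 with it more negative. The split of calls was 57.5% higher with TMM and 46.7% with upper-quartile scaling.

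The titles carry 2 replicate numbers that differ for unchallenged libraries, and neither paired the knockout libraries: residuals of same-numbered libraries correlated at -0.246, 0.048 and -0.025 by the last number and at 0.249 and 0.024 by the first. With a replicate block by the last number 1737 genes were higher and 1015 lower, and the cause of these lower counts was not tested. With a block by the first number 2513 were higher and 1913 lower. In that block challenged replicate 1 and unchallenged replicate 4 have no partner. They add nothing to that contrast, so its counts rest on fewer libraries. Acinar genes lost calls under the block and in the knockout libraries alone, with the highest adjusted p at 0.394 for Cpa1. The 3 libraries per group limit what small changes can be called.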
